A study of Homo sapiens with 6 samples.

Results

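Genes that make, break down and bind hyaluronan were examined in SW620, a human colorectal cancer cell line derived from a lymph node metastasis. The group held 8 genes of the 20476 in the count table: the synthase genes HAS2 and HAS3, the receptor genes CD44 and HMMR, the hyaluronidase genes HYAL1, HYAL2 and HYAL3, and CEMIP, which is needed for hyaluronan breakdown by fibroblasts. They were chosen by name and function while fold changes of the comparison described below were already known, among them the higher level of HAS2 after ECM1 knockdown. Their levels and differences are therefore given as a description, and no test is made over the group. All 8 of the 8 genes passed the filter on low counts, which kept 12576 genes.

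The cells carried either a stable short hairpin RNA against ECM1 (shECM1, 3 libraries) or a negative control hairpin (shNC, 3 libraries), and no other treatment is named. ECM1 is a secreted matrix glycoprotein, and the stated aim was to learn how it bears on the chemokine gene CCL20. Whether the lines were clones or pools, and which hairpin sequences were used, is not given in the sources used here. The labels do not say whether replicates were separate cultures, so the spread between them may be technical. The table names its columns by a letter and a number, and matching S to shECM1 and C to shNC is an inference from those names. If the letters meant the reverse, every direction below would turn round. The protocols describe both extracted total RNA and droplet single-cell libraries, but the table holds 1 count per gene and library, so a change per cell cannot be told apart from a change in the mix of cells.

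Library totals ran from 9881720 to 16813951 counts in shECM1 and from 11792872 to 14781799 in shNC. Levels are CPM, counts scaled to a common library size with edgeR's TMM factors. ECM1 stood at 14.8, 13.6 and 8.41 CPM in shECM1 replicates 1, 2 and 3 and at 38.8, 19.0 and 52.3 CPM in shNC replicates 1, 2 and 3. The groups did not overlap, although shNC replicate 2 lay nearest to the knockdown libraries. CCL20 had 13.5, 17.5 and 11.5 CPM in shECM1 and 24.6, 15.7 and 39.6 CPM in shNC, and shNC replicate 2 fell within the knockdown range. Epithelial identity was plain in every library: the keratin gene KRT8 ran from 5708 to 6826 CPM in shECM1 and from 5987 to 8734 CPM in shNC, and EPCAM from 483.5 to 538.0 CPM in shECM1 and from 454.6 to 501.4 CPM in shNC. Of the other epithelial and colorectal markers, CDX1, an intestinal transcription factor, was at or near 0 in both groups. It had 0 counts in every shECM1 library and 0, 0 and 1 in shNC replicates 1, 2 and 3. KRT20 stayed near 1 CPM in both groups, and LGALS4 averaged 0.862 CPM in shECM1 and 0.79 CPM in shNC.

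Hyaluronan is a long, unsulfated polysaccharide of alternating glucuronic acid and N-acetylglucosamine. Synthases in the plasma membrane build it from UDP-sugars and push the growing chain out of the cell, where it fills the pericellular matrix. It is cleaved outside the cell and at the cell surface, taken up, and finished off in lysosomes. In tumours it is known mainly as a product of stromal cells that carcinoma cells meet through CD44, and CEMIP is known as a gene with raised expression in colorectal cancers.

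The 8 genes did not move as a block. HYAL1 and CEMIP were lower in every shECM1 library than in every shNC library, HAS2 was higher in every one, and HAS3, CD44, HMMR, HYAL2 and HYAL3 overlapped between the groups. That is 2 of 8 genes lower without overlap, against 13.2% of all tested genes, and 1 of 8 higher, against 11.2%. A log2 fold change here is shECM1 minus shNC from edgeR's quasi-likelihood fit, with its standard error (SE). The median over the 8 genes was -0.20 with 6 negative, beside a median of 0.01 and 48.6% negative over all genes tested.

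After adjustment edgeR called 0 of 8 hyaluronan genes, as it called 0% of the 12576 genes tested, and limma-voom likewise called 0. At an unadjusted p under 0.05, edgeR counted 2 of the 8 on the lower side, where 14.2% of all genes lay, and 1 on the higher side, where 8.31% lay. DESeq2 called HYAL1 and CEMIP lower, 2 of 8 where 5.13% of genes were called, and HAS2 higher, 1 of 8 where 1.04% were called. With shNC replicate 2 left out, edgeR called the same 3 genes in the same directions, against 14.1% of all genes lower and 9.73% higher. These calls come from the comparison that was known when the genes were chosen, and nothing is read from them.

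**Figure D1:**
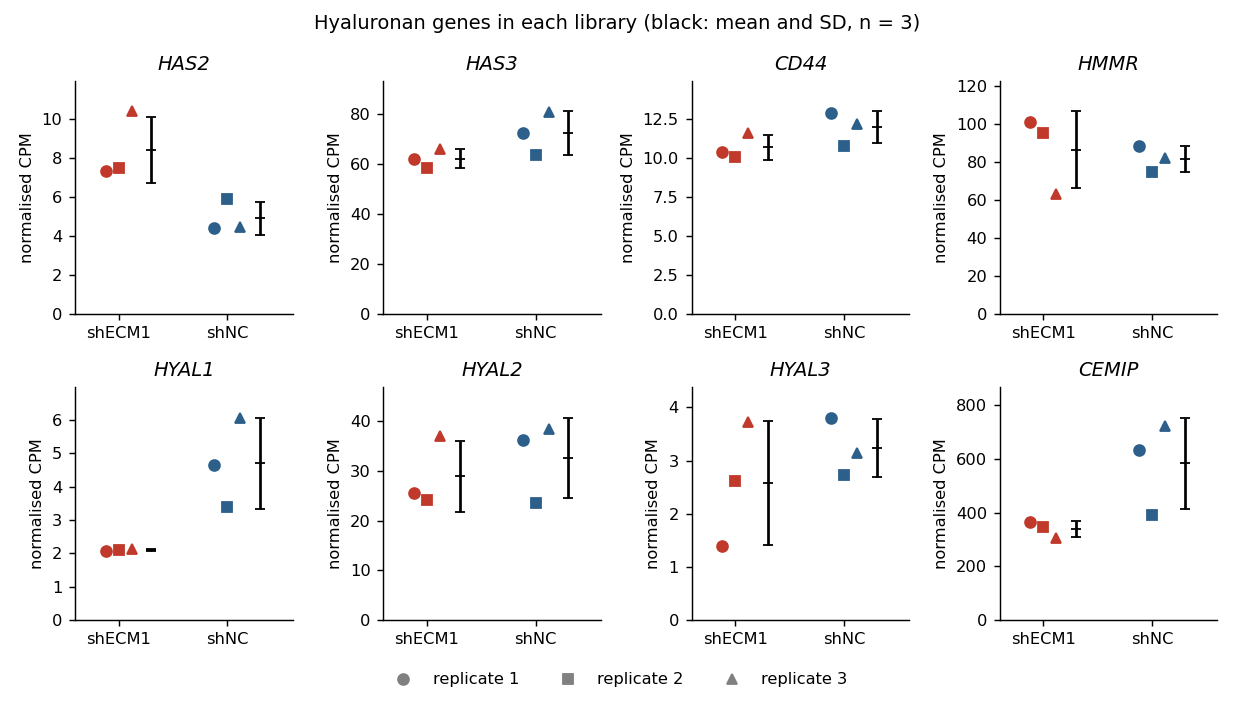
Normalised level in CPM (vertical axes, from 0) of the 8 genes in each shECM1 library (left, red) and each shNC library (right, blue). Marker shapes give the replicate number and black bars the mean and SD of 3 libraries. HAS2, HYAL1 and CEMIP separate the groups, and shNC replicate 2 (square) is the control library nearest to shECM1 in each of them.

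HAS2, the synthase whose loss is lethal to mouse embryos (ENSG00000170961, GRCh38 chromosome 8, 121612116 to 121641390, minus strand), was the rarer of the synthase transcripts. It had 7.35, 7.51 and 10.4 CPM in shECM1 replicates 1, 2 and 3, against 4.4, 5.89 and 4.44 CPM in shNC replicates 1, 2 and 3. The highest control library, shNC replicate 2, was still below the lowest knockdown library. Means were 8.41 ± 1.71 CPM in shECM1 and 4.91 ± 0.849 CPM in shNC (SD, n = 3 each), a 1.71-fold ratio, and the log2 fold change was 0.78 ± 0.22 (SE). The values rested on 74 to 142 counts per shECM1 library and 52 to 82 per shNC library. An antisense gene, HAS2-AS1, covers 4.8% of the HAS2 exon bases on the opposite strand. Whether counting used strand is not given in the sources used here, so its reads could be included. The same limit holds for HMMR, CD44 and CEMIP, where antisense genes cover 2.9%, 0.8% and 0.9% of the exon bases.

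HAS3 (ENSG00000103044, GRCh38 chromosome 16, 69105564 to 69118719, plus strand), which encodes the other synthase detected, carried most of the synthase counts. It stood at 61.8, 58.3 and 65.9 CPM in shECM1 and at 72.5, 63.4 and 80.9 CPM in shNC. The overlap came from shNC replicate 2, the only control below shECM1 replicate 3. Means were 62.0 ± 3.80 CPM in shECM1 and 72.3 ± 8.74 CPM in shNC (SD, n = 3 each), with a log2 fold change of -0.22 ± 0.12 (SE). CHTF8 overlaps 6.9% of the HAS3 exon bases on the opposite strand and had 50.1 ± 2.04 CPM in shECM1 and 47.8 ± 2.48 CPM in shNC. HAS1, the remaining synthase gene, had 0 counts in all 6 libraries.

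The balance between the synthases differed within libraries, where no scaling between libraries enters. HAS2 made up 10.6% (95% Wilson interval 8.55 to 13.1), 11.4% (9.67 to 13.4) and 13.6% (11.7 to 15.8) of synthase counts in shECM1 replicates 1, 2 and 3. In shNC replicates 1, 2 and 3 it made up 5.72% (4.39 to 7.42), 8.50% (6.90 to 10.4) and 5.20% (4.08 to 6.61). The groups did not overlap, with means of 11.9% ± 1.55 in shECM1 and 6.47% ± 1.77 in shNC (SD, n = 3 each), but the intervals of shNC replicate 2 and shECM1 replicates 1 and 2 did. This share is made of the counts given above and adds no separate evidence. Intervals cover counting error only.

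**Figure D2:**
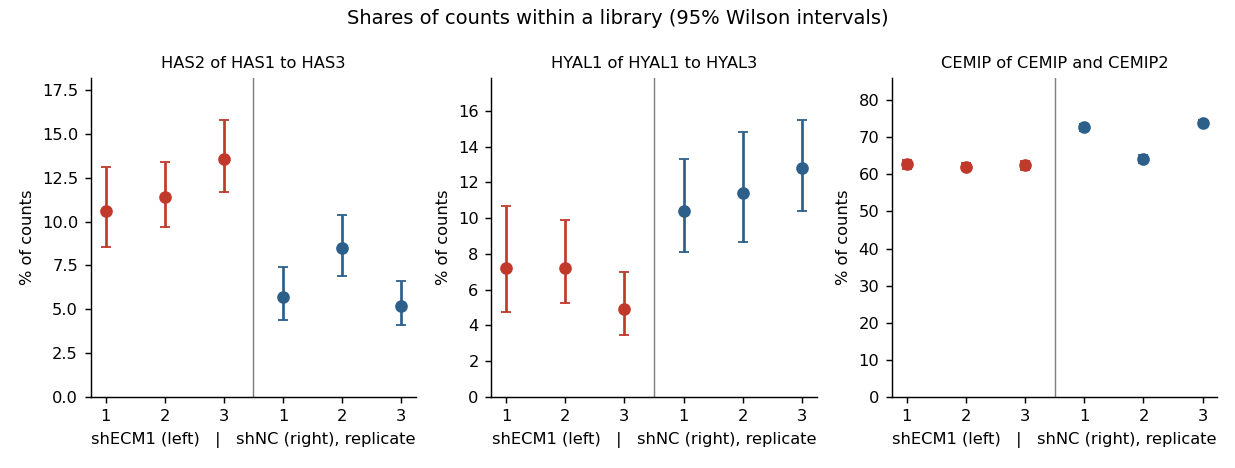
Share of counts within each library, in percent (vertical axes, from 0), for HAS2 among synthases, HYAL1 among HYAL1 to HYAL3, and CEMIP among CEMIP and CEMIP2. Points are libraries (shECM1 left in red, shNC right in blue) and bars 95% Wilson intervals. HAS2 takes 10.6% to 13.6% in shECM1 and 5.20% to 8.50% in shNC.

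CD44 encodes the main cell-surface receptor for hyaluronan, a glycoprotein with many spliced forms that the gene-level counts cannot tell apart (ENSG00000026508, GRCh38 chromosome 11, 35138870 to 35232402, plus strand). It stood at 10.4, 10.1 and 11.6 CPM in shECM1 and 12.9, 10.8 and 12.2 CPM in shNC, from 105 to 170 counts per shECM1 library and 151 to 170 per shNC library. The groups overlapped, again through shNC replicate 2, and 30.9% of tested genes had a lower mean CPM. The log2 fold change of -0.16 ± 0.16 (SE) was no larger than its error.

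HMMR, also called RHAMM, binds hyaluronan at the cell surface and serves inside the cell as a mitotic spindle protein (ENSG00000072571, GRCh38 chromosome 5, 163460203 to 163491945, plus strand). It stood at 100.6, 94.8 and 63.1 CPM in shECM1 and at 88.3, 74.6 and 81.7 CPM in shNC. The shECM1 libraries spanned the whole control range, with replicates 1 and 2 above every shNC library and replicate 3 below every one. Means were 86.2 ± 20.2 CPM in shECM1 and 81.6 ± 6.85 CPM in shNC (SD, n = 3 each), and the log2 fold change was 0.08 ± 0.16 (SE). Without shECM1 replicate 1 its sign turned, to -0.04. CD44 was 9.39%, 9.65% and 15.6% of the summed CD44 and HMMR counts in shECM1 and 12.7%, 12.7% and 13.0% in shNC, so the high share in shECM1 replicate 3 went with its low HMMR level.

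HYAL1 encodes the lysosomal hyaluronidase that is also found in plasma (ENSG00000114378, GRCh38 chromosome 3, 50299889 to 50312381, minus strand). It had 2.08, 2.09 and 2.12 CPM in shECM1 replicates 1, 2 and 3, against 4.65, 3.38 and 6.08 CPM in shNC replicates 1, 2 and 3. All knockdown libraries lay below all controls, at 2.10 ± 0.0213 CPM in shECM1 and 4.70 ± 1.36 CPM in shNC (SD, n = 3 each), a ratio of 0.446. The log2 fold change, -1.16 ± 0.27 (SE), was the most negative of the group. It rested on 21, 35 and 29 counts in shECM1 and 55, 47 and 85 in shNC, so the close agreement of the knockdown libraries is tighter than counts of that size resolve. Only 13.9% of tested genes had a lower mean CPM.

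HYAL2 lies beside HYAL1 and encodes a surface-anchored hyaluronidase that cuts long chains (ENSG00000068001, GRCh38 chromosome 3, 50317790 to 50322906, minus strand). It stood at 25.5, 24.1 and 37.1 CPM in shECM1 and at 36.3, 23.5 and 38.4 CPM in shNC. Each group held both high and low libraries, shECM1 replicate 3 being high and shNC replicate 2 low. The log2 fold change was -0.18 ± 0.21 (SE). TUSC2 shares 11.2% of the HYAL2 exon bases on the same strand and had 23.5 ± 1.13 CPM in shECM1 and 20.5 ± 2.33 CPM in shNC (SD, n = 3 each). Reads in the shared part cannot be assigned to either gene from these counts.

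HYAL3, a close relative with little activity of its own in what is known (ENSG00000186792, GRCh38 chromosome 3, 50292831 to 50299468, minus strand), had 1.39, 2.62 and 3.73 CPM in shECM1 and 3.81, 2.73 and 3.15 CPM in shNC. The spread within shECM1 covered most of the control range, from 14, 44 and 51 counts in shECM1 and 45, 38 and 44 in shNC. Its log2 fold change was -0.29 ± 0.33 (SE), and it moved to -0.02 without shECM1 replicate 1 and to -0.63 without shECM1 replicate 3. NAA80, an acetyltransferase gene for actin, shares 12.2% of the HYAL3 exon bases on the same strand. It stood at 7.39 ± 0.0505 CPM in shECM1 and 14.2 ± 4.41 CPM in shNC, without overlap. IFRD2 shares a further 2.1% of the HYAL3 exon bases on the same strand and had 61.2, 67.1 and 95.9 CPM in shECM1 and 56.5, 72.5 and 38.3 CPM in shNC. In shECM1 replicate 3 both HYAL3 and IFRD2 were at their highest of the knockdown group. Among controls the 2 genes did not run together: IFRD2 was highest in shNC replicate 2, where HYAL3 was lowest. Reads in the shared parts cannot be assigned from these counts, so the HYAL3 value is uncertain.

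Among the counts of HYAL1, HYAL2 and HYAL3 together, HYAL1 held 7.19% (95% Wilson interval 4.75 to 10.7), 7.23% (5.25 to 9.89) and 4.94% (3.46 to 7.01) in shECM1. In shNC it held 10.4% (8.08 to 13.3), 11.4% (8.69 to 14.8) and 12.8% (10.4 to 15.5). The groups did not overlap, at 6.45% ± 1.31 in shECM1 and 11.5% ± 1.19 in shNC (SD, n = 3 each), and here shNC replicate 2 stood with the other controls. In that library HYAL2, the largest part of the sum, was at its lowest, 23.5 CPM, while HYAL1, at 3.38 CPM, was the control nearest to shECM1. In shECM1 replicate 3, where the HYAL1 share was lowest, HYAL2 was high at 37.1 CPM. This share depends on HYAL2, is made of the counts given above and adds no separate evidence. The intervals of shECM1 replicates 1 and 2 overlapped those of controls, at these low counts, and that of shECM1 replicate 3 did not.

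CEMIP encodes a secreted and membrane-associated hyaluronan-binding protein required for depolymerisation of hyaluronan in fibroblasts (ENSG00000103888, GRCh38 chromosome 15, 80779343 to 80951776, plus strand). It was the most abundant gene of the group, with 97.7% of tested genes at a lower mean CPM. Levels were 363.6, 347.1 and 305.8 CPM in shECM1 replicates 1, 2 and 3, against 632.7, 392.2 and 723.6 CPM in shNC replicates 1, 2 and 3. All knockdown libraries lay below all controls, but shNC replicate 2 stood much nearer to shECM1 replicate 1 than to the other controls. Means were 338.8 ± 29.8 CPM in shECM1 and 582.9 ± 171.2 CPM in shNC (SD, n = 3 each), a ratio of 0.581, and the log2 fold change was -0.78 ± 0.19 (SE). The values rested on at least 3662 counts in every library. MESD covers 2.9% of the CEMIP exon bases on the opposite strand and stood at 51.5 ± 3.82 CPM in shECM1 and 45.9 ± 1.68 CPM in shNC.

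CEMIP2, or TMEM2, the membrane-bound relative of CEMIP that cleaves hyaluronan at the cell surface in mice, was at 215.7, 212.1 and 183.4 CPM in shECM1 and 238.1, 218.7 and 255.3 CPM in shNC. The groups did not overlap, yet the gap was small, with a log2 fold change of -0.22 ± 0.11 (SE) that neither edgeR nor DESeq2 called. CEMIP held 62.8%, 62.1% and 62.5% of the counts of both genes in shECM1, against 72.7%, 64.2% and 73.9% in shNC. The 95% Wilson interval of shNC replicate 2, 63.2 to 65.2, overlapped those of shECM1 replicate 1, 61.5 to 64.0, and shECM1 replicate 3, 61.3 to 63.7. The shECM1 libraries were nearly equal in this balance, and shNC replicate 2 again lay closest to them. This share, too, is made of the counts of both genes and adds no separate evidence.

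To compare levels between genes, CPM was divided by the length of the merged exons in kilobases. On this scale, taken as the mean over the 6 libraries, CEMIP led with 60.5 CPM per kb, followed by HMMR with 21.3, HAS3 with 12.7 and HYAL2 with 6.78. HAS2 (1.59), HYAL3 (1.43), CD44 (1.13) and HYAL1 (1.09 CPM per kb) were far below. In shECM1, HAS2 averaged 2.01 CPM per kb and HYAL1 0.670, and in shNC they averaged 1.17 and 1.5, so their order differed between the groups. If the libraries read only transcript ends, as the droplet kit in the protocols does, division by length does not apply and CPM alone gives the level.

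**Figure D3:**
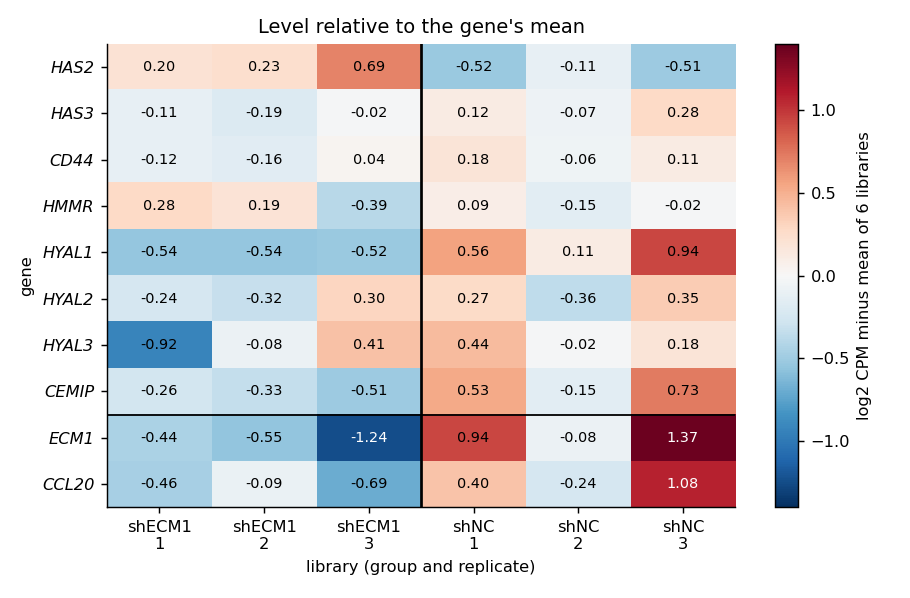
Log2 CPM of each gene (rows) in each library (columns, shECM1 left of the line, shNC right) minus the gene's mean over the 6 libraries. Red is above and blue below the mean, and ECM1 and CCL20 are set under the line for comparison. HYAL1 is at -0.52 to -0.54 in all shECM1 libraries, while shNC replicate 2 stays within 0.36 of the mean for every gene.

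Libraries differed inside each group as well. In shECM1 replicate 3, HAS2, HAS3, CD44, HYAL1, HYAL2 and HYAL3 were all at their highest of the knockdown group. HAS2, HYAL2 and HYAL3 stood 0.69, 0.30 and 0.41 above their means on the log2 scale. For HYAL1 the margin was slight, at 2.12 CPM against 2.08 and 2.09 CPM in shECM1 replicates 1 and 2. HMMR and CEMIP were at their lowest in shECM1 replicate 3, 0.39 and 0.51 below their means. ECM1 itself was lowest in that library. In shNC replicate 3, HYAL1 and CEMIP stood 0.94 and 0.73 above their means, and ECM1 and CCL20 stood 1.37 and 1.08 above theirs. The control library with most ECM1 thus also had most CEMIP and HYAL1, and shNC replicate 2, with least ECM1 among controls, had least of both. This order of the controls was not particular to these genes. KRT8 had 7601, 5987 and 8734 CPM in shNC replicates 1, 2 and 3, and EZR, a gene for a CD44 partner, had 1686, 1454 and 1990 CPM. Principal component 1 placed them in that order too, at 25.2, -8.64 and 41.3. Within shECM1, the library with least ECM1 had least CEMIP but not least HYAL1.

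Promoters are shown for CEMIP and HYAL1, the genes lower in all shECM1 libraries, and for HMMR, whose window differs from theirs in the boxes it holds. Each window runs from 250 bases before to 50 bases after a transcript start, 5′ to 3′ on the gene's strand, from RefSeq on GRCh38.p14. Windows were available for 7 of the 8 genes, and HYAL3 had 2. HAS2, the gene higher in all shECM1 libraries, had none and was not searched. The HYAL1 window lies inside the gene, which extends upstream to 50312381. The HMMR window also lies inside its gene, which starts upstream at 163460203. So do the CD44 and HAS3 windows and the downstream HYAL3 window, which are not printed. Transcript starts outside the available windows were not searched. Capitals mark matches on either strand to any of the motifs named in the next paragraph, and touching or overlapping matches run together.
CEMIP, chr15:80779120-80779419, plus strand: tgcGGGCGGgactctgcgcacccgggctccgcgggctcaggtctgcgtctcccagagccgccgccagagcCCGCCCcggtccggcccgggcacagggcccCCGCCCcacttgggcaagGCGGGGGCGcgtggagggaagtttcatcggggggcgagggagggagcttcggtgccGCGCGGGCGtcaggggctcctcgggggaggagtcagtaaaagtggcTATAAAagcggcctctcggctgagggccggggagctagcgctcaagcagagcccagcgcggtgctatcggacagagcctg
HYAL1, chr3:50303525-50303824, minus strand: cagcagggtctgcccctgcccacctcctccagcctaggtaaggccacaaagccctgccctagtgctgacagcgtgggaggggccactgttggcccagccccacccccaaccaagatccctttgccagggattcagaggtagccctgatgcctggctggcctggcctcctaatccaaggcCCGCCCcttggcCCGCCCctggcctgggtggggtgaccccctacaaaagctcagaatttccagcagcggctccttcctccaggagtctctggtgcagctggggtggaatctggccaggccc
HMMR, chr5:163460382-163460681, plus strand: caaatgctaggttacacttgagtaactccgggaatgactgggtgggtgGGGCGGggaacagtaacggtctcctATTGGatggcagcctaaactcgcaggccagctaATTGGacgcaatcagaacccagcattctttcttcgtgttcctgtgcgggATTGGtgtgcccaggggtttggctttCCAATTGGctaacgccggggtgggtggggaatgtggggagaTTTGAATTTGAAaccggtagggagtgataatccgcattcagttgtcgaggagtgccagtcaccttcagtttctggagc

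Matches were searched on both strands, and counted over 34943 windows of the same length. The motif GCGNGGGCG, bound by EGR factors, matched in the CEMIP window at positions -132 and -76 from the transcript start and in no other of the 7 genes, and 9.41% of all windows held it. CEMIP was also alone among them in holding a TATA box (TATAAA, at -30, in 11.6% of all windows). HMMR alone held the cell cycle element TTTGAA, in tandem at -28 and -22 (15.2% of all windows), and the CCAAT box, at -177, -144, -95, -69 and -66 (34.6%). At -69 and -66, CCAAT boxes on opposite strands overlap. The GC box GGGCGG, which can overlap the EGR motif, matched in CEMIP, HYAL1, HYAL3, CD44, HAS3 and HMMR but not HYAL2 (44.9% of all windows). The AP-1 motif TGANTCA (7.72% of all windows) and the TCF/LEF motif ATCAAAG (2.63%) matched in none of the 7 genes. A match describes letters in these windows and says nothing of binding, which was not measured.

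Genes that make or consume hyaluronan precursors were measured from a list of 12, of which 11 passed the filter. Their log2 fold changes were negative in 4 and positive in 7, with a median of 0.11 beside 0.01 over all genes. Neither edgeR nor DESeq2 called any, and at an unadjusted p under 0.05 edgeR counted 1 lower and 0 higher, beside 14.2% and 8.31% of all genes. HK2, a hexokinase at the head of sugar activation, was at 266.6 ± 11.5 CPM in shECM1 and 330.6 ± 50 CPM in shNC (SD, n = 3 each). PGM1, which interconverts glucose phosphates on the way to UDP-glucose, was at 162.6 ± 4.73 CPM in shECM1 and 165.1 ± 13.7 CPM in shNC. GNPNAT1, which acetylates glucosamine phosphate on the way to UDP-N-acetylglucosamine, was at 41.4 ± 3.18 CPM in shECM1 and 33.4 ± 5.87 CPM in shNC, with a log2 fold change of 0.31 ± 0.14 (SE). With shNC replicate 2 left out, edgeR called HK2 lower and GNPNAT1 and GNPDA1 higher, 1 and 2 of 12 tested, beside 14.1% and 9.73% of all genes. As the list holds genes of both kinds, GNPDA1 and GNPDA2 among the consuming ones, its counts give no direction of precursor supply.

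Among 8 other genes of hyaluronan synthesis and breakdown, 5 were tested, 3 of them negative, with a median log2 fold change of -0.20 and 0 called by edgeR or DESeq2, nor any at an unadjusted p under 0.05 by edgeR. HAS1 and the sperm hyaluronidase gene SPAM1 had 0 counts in every library. GUSB, a lysosomal enzyme that removes glucuronic acid from the fragments, was at 64.6 ± 4.69 CPM in shECM1 and 74.5 ± 10.7 CPM in shNC (SD, n = 3 each). Leaving out shNC replicate 2 gave no edgeR call in this list either.

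Most other hyaluronan receptors and binding proteins had too few counts to test. Of 26 genes, 8 passed the filter, 18 did not, and 6 of those, among them LYVE1, TLR2 and TNFAIP6, had 0 counts in every library. Of the 8 tested, 6 were negative, the median log2 fold change was -0.17, edgeR called 0, and DESeq2 called 1 lower and 1 higher, where it called 5.13% and 1.04% of all genes. At an unadjusted p under 0.05 edgeR counted 1 lower and 2 higher, where 14.2% and 8.31% of all genes lay. HAPLN3, a link protein that ties hyaluronan to proteoglycans, fell by DESeq2's call to 3.90 ± 0.551 CPM in shECM1, against 7.98 ± 2.60 CPM in shNC (SD, n = 3 each), with an edgeR log2 fold change of -1.04 ± 0.26 (SE). C1QBP, a mainly mitochondrial protein that also binds hyaluronan, rose by DESeq2's call to 528.5 ± 38.5 CPM in shECM1, against 409.8 ± 40.9 CPM in shNC. Adjusted p for HAPLN3 was 0.0180 by DESeq2 and 0.0973 by edgeR's quasi-likelihood test, and ranged from 0.000459 to 0.376 over 15 alternatives. For C1QBP it was 0.0408 by DESeq2 and 0.112 by edgeR, with a range of 0.000411 to 0.401. BCAN, the proteoglycan brevican, was at 47.2 ± 3.32 CPM in shECM1 and 50 ± 0.361 CPM in shNC.

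Around CD44, 23 of 25 genes for cytoskeletal partners, sheddases and splicing factors were tested. Of these, 16 were negative, with a median log2 fold change of -0.09, edgeR called 0, and DESeq2 called 2 lower and 0 higher, beside 5.13% and 1.04% of all genes. At an unadjusted p under 0.05 edgeR counted 5 lower and 2 higher, beside 14.2% and 8.31% of all genes. MSN, moesin, which links CD44 to actin, fell by DESeq2's call to 493.5 ± 41.4 CPM in shECM1, against 701.1 ± 167.5 CPM in shNC (SD, n = 3 each). EZR, its relative ezrin, had the highest level per kilobase of the list and was at 1427 ± 117.1 CPM in shECM1 and 1710 ± 269.0 CPM in shNC, uncalled by both tools. ARHGEF1 fell by DESeq2's call to 155.1 ± 9.59 CPM in shECM1, against 260.2 ± 66.5 CPM in shNC, with an edgeR log2 fold change of -0.75 ± 0.16 (SE). DESeq2's adjusted p was 0.0408 for MSN and 0.00172 for ARHGEF1, edgeR's was 0.119 and 0.0973, and the alternatives ran from 1.71e-06 to 0.402 and from 1.29e-10 to 0.376. Without shNC replicate 2, edgeR called 7 lower, EZR, MSN and the sheddase genes MMP14 and MMP7 among them, and 1 higher, SRSF1, of 23 tested, beside 14.1% and 9.73% of all genes in that fit.

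**Figure D4:**
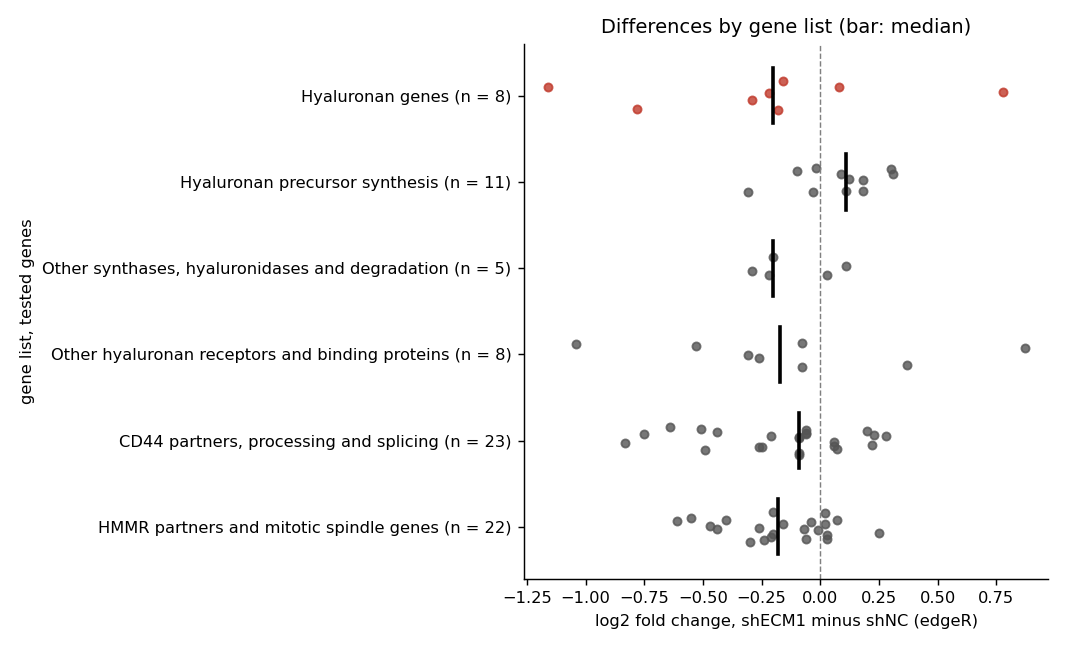
Log2 fold change (shECM1 minus shNC, edgeR, horizontal axis) of each tested gene in the hyaluronan group (red) and the lists around it (grey), with n and a bar at the median. HAS2 at 0.78 and HYAL1 at -1.16 lie at the ends of the hyaluronan group, whose median is -0.20.

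HMMR was set beside 23 genes of its spindle partners and of mitosis, 22 of them tested. The untested one, the spindle gene NUSAP1, had 0, 7 and 3 counts in shECM1 and 1, 2 and 3 in shNC, low for a gene of dividing cells. How the authors' counting treated reads shared between genes is not given, so counts at or near 0 in this table may not show that a gene is not expressed. Their log2 fold changes were negative in 16, with a median of -0.18, while that of HMMR was 0.08. Neither edgeR nor DESeq2 called any, and at an unadjusted p under 0.05 edgeR counted 6 lower and 0 higher, beside 14.2% and 8.31% of all genes. FAM83D, a spindle partner of HMMR, was at 30.1 ± 1.23 CPM in shECM1 and 45.9 ± 15.2 CPM in shNC (SD, n = 3 each). AURKB, a kinase of chromosome segregation, was at 74.0 ± 2.61 CPM in shECM1 and 108.7 ± 33.7 CPM in shNC. CCNB1, cyclin B1, and TOP2A, a topoisomerase of dividing cells, had the highest levels per kilobase and log2 fold changes of -0.06 and -0.21. By library, the median of the 22 genes relative to their own means was -0.03, -0.02 and -0.21 on the log2 scale in shECM1 and 0.16, -0.11 and 0.19 in shNC. In shECM1 replicate 3, HMMR and that median were both at their lowest, whereas in shECM1 replicates 1 and 2 HMMR was high and the median was not. With shNC replicate 2 left out, edgeR called 8 of the 22 lower and 0 higher, beside 14.1% and 9.73% of all genes, and HMMR was not called.

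The genes whose levels ran most like those of HAS2, CD44 and HMMR over the 6 libraries were looked up among 8950 genes with a mean of at least 10 CPM. For HAS2 they were NDUFAB1 (Pearson r of log2 CPM 0.994), WDR70 (0.991) and CBLL1 (0.989). NDUFAB1, the mitochondrial acyl carrier protein, had 88.6, 92.3 and 102.8 CPM in shECM1 and 72.3, 83.4 and 71.9 CPM in shNC, with shNC replicate 2 again the highest control. VPS37C (0.994), FADS1 (0.993) and SCAF1 (0.990) ran most like CD44. Most like HMMR were TRAPPC6B (0.997), NDFIP1 (0.990) and TRMT1L (0.988), none of them on the mitotic list. These values describe 6 points that share the group difference, library composition and total counts.

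Markers of cell types that make or clear hyaluronan in tissue were measured beside these results. Of 15 fibroblast markers 6 were tested, and their summed level over the list ran from 149.7 to 157.7 CPM in shECM1 and from 198.8 to 371.4 CPM in shNC, with COL6A1 the largest part. DESeq2 called 4 of these 6 lower, beside 5.13% of all genes. PDGFRA, FAP, POSTN and COL3A1 had 0 counts in every library. Of 18 immune markers 5 were tested, with sums of 55.5 to 86.2 CPM in shECM1 and 85.4 to 205.0 CPM in shNC. Most of each sum was CD68 alone, at 41.4 to 71.9 CPM in shECM1 and 68.9 to 175.2 CPM in shNC. ITGAX, 1 of the 5, was called lower by DESeq2 (5.13% of all genes), and PTPRC, CD3E, MS4A1, FCGR3A and HLA-DRA were at 0 throughout. Of 13 endothelial markers 3 were tested, with sums of 103.1 to 122.4 CPM in shECM1 and 110.3 to 126.2 CPM in shNC, nearly all of it PROX1 at 94.1 to 111.4 CPM in shECM1 and 98.0 to 112.8 CPM in shNC, and LYVE1, KDR, ERG and EMCN were at 0. The fibroblast sum was lower in all shECM1 libraries, as CEMIP and HYAL1 were, and the part of these markers in the differences was not tested.

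**Figure D5:**
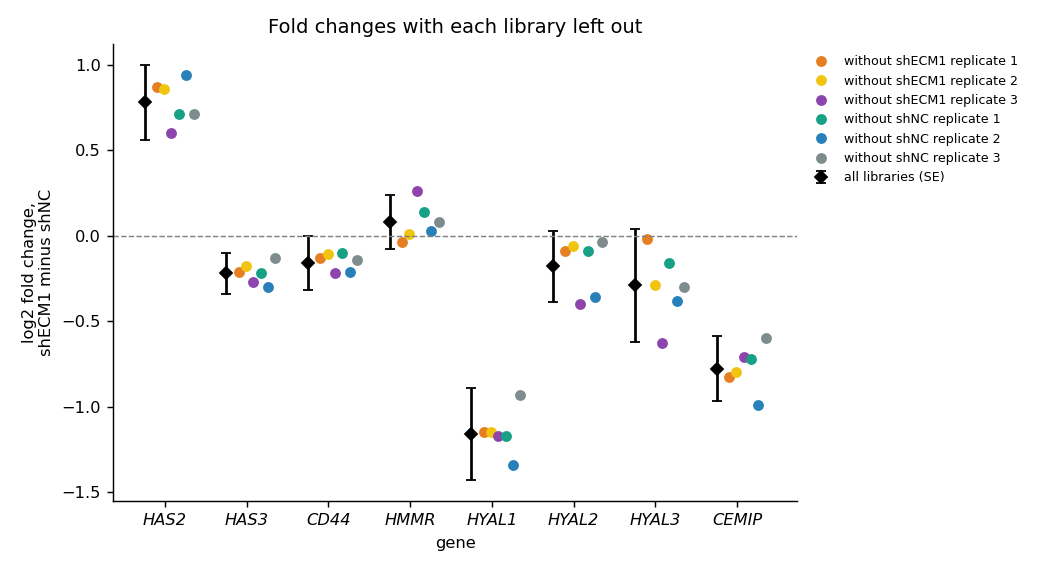
Log2 fold change (shECM1 minus shNC, vertical axis) of the 8 genes with all libraries (black diamond, bar 1 SE) and with each library left out (coloured points). HAS2 stays between 0.60 and 0.94, HYAL1 between -1.34 and -0.93 and CEMIP between -0.99 and -0.60, and HMMR crosses 0.

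Leaving out single libraries moved the size of these differences. For HAS2, HYAL1 and CEMIP the groups did not overlap, so their kept direction was set beforehand and is no support. HAS3, CD44, HYAL2 and HYAL3 kept their direction too, and only HMMR turned. HAS2 ranged from 0.60 (without shECM1 replicate 3) to 0.94 (without shNC replicate 2). HYAL1 ranged from -1.34 to -0.93 and CEMIP from -0.99 to -0.60, in both cases farthest from 0 without shNC replicate 2 and nearest without shNC replicate 3. HYAL2 ranged from -0.40 to -0.04, HAS3 from -0.30 to -0.13 and CD44 from -0.22 to -0.10. With shNC replicate 2 left out, HAS3 and CD44 also separated the groups, both lower in shECM1, giving 4 of the 8 genes lower, against 27.5% of all genes tested, and 1 higher, against 26.1%.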

How the data were processed

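The authors deposited 1 table of raw counts, whole numbers per gene and library. The tools listed, per the submitters' processing notes, are STAR, fastp, Seurat, DESeq2 and featureCounts, with builds GRCh38 and hg38. What each tool did, with which settings, annotation release and strand option, is not given in the sources used here. Symbols were found for 20462 of 20476 identifiers, and coordinates and exon lengths came from GENCODE release 29 (GRCh38). Differences were fitted with edgeR 4.0.16 (R 4.3.3): filterByExpr, TMM scaling, glmQLFit and glmQLFTest with no covariate, and Benjamini-Hochberg adjustment over the 12576 genes tested (threshold 0.05). SE is the size of the log2 fold change over the square root of F. The procedure was tested on simulated data with the same dispersion for all genes and no deviating library. That test does not cover a control set apart from the others, as shNC replicate 2 was. DESeq2 1.42.0 (filtering target 0.05, adjusted p for 11620 genes) and limma-voom (limma 3.58.1) were alternatives. Log2 CPM used a prior count of 2. Any 2 libraries differed by more than sampling noise (chi-square per gene of at least 3.33). Principal component 1 (58.1% of variance) placed shECM1 at -16.6 to -23.3, shNC replicate 2 at -8.64 and the other controls at 25.2 and 41.3.

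The genes and lists were chosen with earlier results of these data known. Named genes were the 8 hyaluronan genes, ECM1, CCL20, in each list the 2 of highest level per kilobase and the 2 of smallest unadjusted p, and the 3 most correlated with HAS2, CD44 and HMMR. Other names were chosen after their values were seen. The motifs were chosen after the differences were seen. RefSeq protein sequences were not used here.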

Additional observations from a re-analysis of the deposited data

How the results depend on the processing

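Of 118 log2 fold changes of the 8 hyaluronan genes under the alternatives, 104 kept their direction and side of the 0.05 threshold, 13 passed it in the same direction, and 1 turned (HMMR, -0.04 without shECM1 replicate 1, within a leave-one-out range of -0.04 to 0.26). The alternatives were RLE size factors, unscaled library sizes, all genes kept, a stricter filter (50 counts or more in 3 libraries or more), DESeq2, limma-voom, the replicate block and each library left out, plus 2 DESeq2 settings chosen after seeing the data. HYAL1 and HYAL3 gave no value under the stricter filter. The edgeR count of 0 called genes became 505 with no count filter, 717 with DESeq2, 689 with DESeq2 at its default filtering target of 0.1, and 2681 with DESeq2 and shNC replicate 2 left out. Leaving out 1 library gave 0 to 3037, and the count above 0 came without shNC replicate 2. Of the hyaluronan genes, 2 were called with no count filter (HYAL1 and CEMIP), 3 with DESeq2, 2 with DESeq2 at the filtering target of 0.1, where HAS2 was lost, and 3 with DESeq2 and shNC replicate 2 left out. Leaving out 1 library gave 0 to 3. DESeq2 in its first setting called 5.13% of all genes lower and 1.04% higher. Shares of all genes were not worked out for no count filter or the 2 added DESeq2 settings, so nothing is read from these counts. Genes whose groups did not overlap numbered 3068 of 12576, and 6745 without shNC replicate 2, and hyaluronan genes 3 and 5. PGM1 turned to 0.01 with library size only and ranged from -0.07 to 0.04 with 1 library left out. The cause was not tested.

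Titles share replicate numbers, but same-numbered libraries did not deviate together (correlations of -0.07, -0.05 and -0.18, and 0 of 6 libraries correlated best with their own number). With the replicate block edgeR called 0 genes, 2414 rather than 2827 reached an unadjusted p under 0.05, and the log2 fold changes of HAS2, HYAL1 and CEMIP were 0.77, -1.12 and -0.74. Depth limits HYAL1 and HYAL3, at 85 counts or fewer per library, most.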
